A study of Dicentrarchus labrax with 23 samples.

Results

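The genes described here are 47 ion channel genes of the intestine of European sea bass, Dicentrarchus labrax, measured with 1 oligonucleotide probe each among the 14147 probes of a custom array. They were found by searching the names in the study's list of genes called between the pooled anterior and middle segments and the posterior segment for channels, voltage-gated potassium proteins, transient receptor potential proteins, anoctamins, the cystic fibrosis regulator and the sodium/potassium pump. That list names 3652 probes, and the other 10495 are without a name here, so channels that did not differ between those segments could not enter. The study profiled single fish that had been reared indoors on a commercial diet and fasted overnight, to map the functions of the gut along its length. The groups are the anterior intestine (AI, 8 arrays), cut just behind the pyloric caeca, the middle intestine (MI, 7 arrays), from the central part, the 15 arrays of both together (AI-MI), and the posterior intestine (PI, 8 arrays), the end that includes the rectum. All fish were untreated animals of Mediterranean origin, with no age given in the sources used here. Each array held Cy3-labelled RNA of tissue cut from 1 segment of 1 fish, with epithelium, muscle, nerves and blood cells together. Fewer cells of a type and less RNA per cell therefore cannot be told apart. The labels do not say whether arrays of different segments share a fish, and the main fits treat all arrays as independent.

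Epithelial cells of the gut move water and nutrients with gradients that the sodium/potassium pump sets up at their basal side. Potassium channels let the pumped-in potassium out again and hold the membrane voltage, and chloride channels such as the cystic fibrosis regulator let chloride into the lumen, so that sodium and water follow. Other channels serve the muscle, nerves, sensory cells and white blood cells of the gut wall, and a further set works inside the cell, in lysosomes, mitochondria and the endoplasmic reticulum. Gene names are those of the best match in other species, and roles given below are known mostly from mammals. Not every name is a channel. Sodium channel and clathrin linker 1 is an adaptor protein also known from the base of cilia, the MotA/TolQ/ExbB name comes from a bacterial protein family, the 3 pump subunits are no channel, and 4 names are accessory subunits (potassium voltage-gated channel subfamily E member 2, Kv channel-interacting protein 1 and the gamma-like and alpha-2/delta-3 calcium channel subunits).

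The 75th percentile of the processed signal was 388 to 1183 intensity units per array (median 642), and 82.8 to 93.1% of probes were well above background. Below, a level is the log2 signal of a probe minus that percentile, so 0 is the 75th percentile of the array, and levels of different probes cannot be set against each other. No probe spot was saturated, and no 2 of the 23 arrays held the same values (correlations of 0.898 to 0.985 over 253 pairs). Arrays lay on 3 slides, each with all 3 segments, and slide 3 was scanned on another day than slides 1 and 2. The enterocyte markers villin-1 and keratin 8 were well above background on all 23 arrays and summed to 18.9 to 43.9 times the 75th percentile in AI, 29.2 to 47.8 in MI and 11.03 to 23.1 in PI. Sums add linear signals, so the brightest probe weighs most. For enterocytes that was keratin 8 (AI mean 4.68, villin-1 0.25). For neurons it was synaptophysin (-0.15, the others -5.02 to -4.03). For smooth muscle it was myosin regulatory light polypeptide 9 (4.14, the others -0.96 to 0.41). Of other lists, 5 of 5 granulocyte and phagocyte, 4 of 4 lymphocyte, 4 of 4 neuron and 4 of 5 smooth muscle markers were lower in AI-MI than in PI, while 5 of 5 pancreatic enzymes were higher in AI-MI. All marker lists, with that of enterocytes, were taken from the study's list of called genes. Markers that did not differ between AI-MI and PI could not enter, so nothing is read from how many differed. Among the AI arrays, replicate 2 was nearest to the MI mean for 13 of 43 channel genes measured on every array, against 0 to 9 for each of the others. This count, and the one for PI below, was made for the channel genes only. The array was not apart for these genes alone: without it 4.56% of all probes passed the adjusted threshold of 0.05 for AI vs. MI, against 0% with it. This array had the highest smooth muscle sum of AI (39.4, others 12.7 to 27.7) and the highest lymphocyte sum (2.61, others 1.19 to 2.04), and MI replicate 7 had the lowest smooth muscle and neuron sums of MI (18.5 and 0.744). Among the PI arrays, replicates 7 and 8 were nearest to the AI-MI mean for 11 and 9 of these genes, against 2 to 5 for each of the others, and these 2 arrays had the highest enterocyte sums (22.3 and 23.1) and the lowest and second lowest smooth muscle sums of PI (40.5 in replicate 7 and 38.5 in replicate 8). Slide 3 held PI replicates 6, 7 and 8, MI replicates 6 and 7 and AI replicates 7 and 8. Without PI replicate 7, and likewise without PI replicate 8, 42 of the 44 channel genes fitted below passed the threshold of AI-MI vs. PI. That was not particular to these arrays: 42 also passed without PI replicate 4, and 43 without PI replicate 1, 3 or 5. The part of the marker genes in the results was not tested.

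Of the 47 genes, 44 were well above background on at least 7 arrays and entered the fits, and the other 3 are given at the end. By the values that chose them, 23 of 47 were higher in AI-MI and 24 were lower in AI-MI than in PI. All 44 fitted genes passed the adjusted threshold of 0.05 for AI-MI vs. PI, 22 in each direction, where 44.1% of all 12894 probes fitted passed it (21.5% with AI-MI above PI and 22.6% with AI-MI below it), and at a 2-fold difference 14 and 14 genes passed, where 7.34% and 7.26% of all probes did. Since the genes were selected on this contrast, nothing is read from these counts. Without overlap between the arrays, 8 genes lay higher on all AI-MI arrays (4.03% of all probes) and 7 lay lower on all of them than on any PI array (4.34% of all probes), 15 genes in all (8.36%). The median size of the difference was 1.17 on the log2 scale for the 44 genes, 1.03 for all fitted probes named in the list and 0.34 for all probes. The 3 genes just inside the smallest fold of the list were voltage-dependent anion-selective channel protein 2 (1.5-fold), the alpha B subunit of sodium channel type 4 (1.55-fold) and transmembrane channel-like protein 6-like (1.56-fold, well above background on only 3 of 8 PI arrays), while the probes outside it have no names here. With another background correction (normexp), which shrinks differences of dim probes, 38 of the 44 genes passed, 22 higher and 16 lower in AI-MI. All genes lost were thus among those lower in AI-MI. Over all probes the split was 3740 above PI in AI-MI and 2129 below it, with the median probe shifted by 0.13 towards AI-MI.

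**Figure D1:**
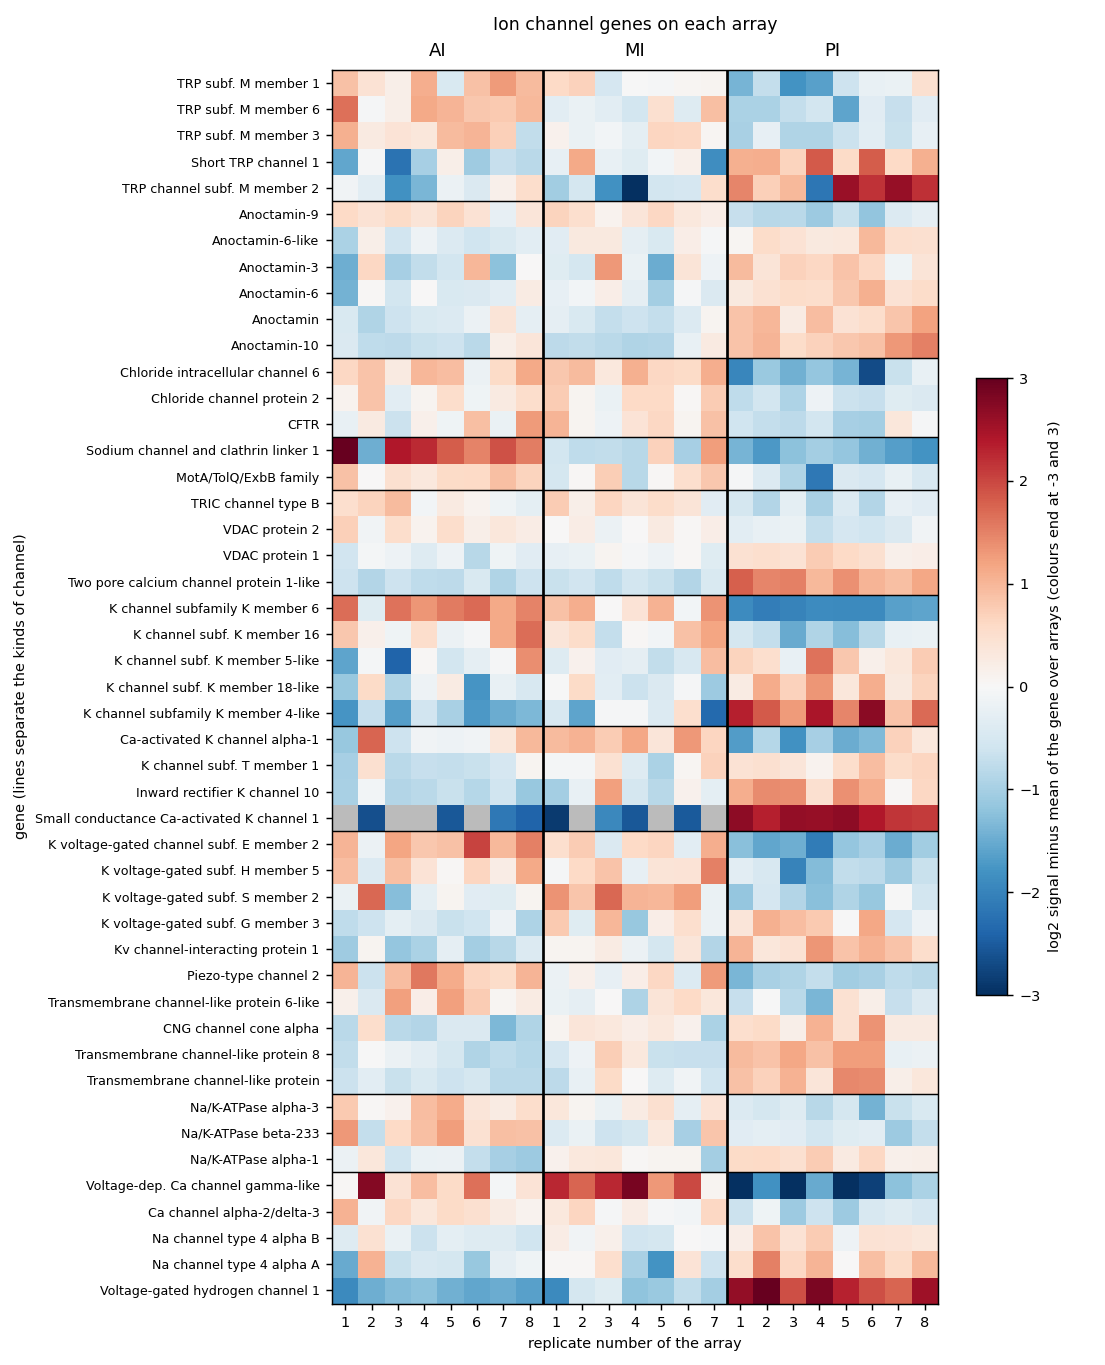
Heat map of the 47 ion channel genes (down the page, lines separate the 11 kinds) on the 23 arrays, ordered AI, MI and PI from left to right with their replicate numbers below. Colour is the log2 signal minus the mean of the gene over all arrays, red above and blue below, and grey marks the 7 uneven spots of small conductance calcium-activated potassium channel protein 1 that were left out. AI replicate 2 has colours unlike the other AI arrays in several rows, and the strongest contrasts are in the rows of that channel and of voltage-gated hydrogen channel 1.

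Tandem-pore-domain potassium channels leak potassium and set the resting voltage. Of these 5 genes, 2 were higher and 3 lower in AI-MI than in PI. Potassium channel subfamily K member 6 ran from 0.73 to 2.78 in AI (median 2.61), from 1.0 to 2.43 in MI (median 1.97) and from -1.0 to -0.51 in PI (median -0.81). Every AI and MI array was above every PI array, and the difference of AI-MI minus PI was 2.86 (SE 0.24, 7.25-fold). Within AI, replicate 2 was far below the other arrays, which lay between 2.23 and 2.78.

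Potassium channel subfamily K member 4-like, in mammals a channel of neurons opened by stretch and fatty acids, was placed the other way round. It ran from -5.11 to -3.90 in AI (median -4.76), from -5.68 to -2.84 in MI (median -3.74) and from -2.49 to -0.64 in PI (median -1.57), without overlap of AI-MI and PI. The difference of -2.80 (SE 0.31, 6.96-fold lower in AI-MI) was -1.56 after normexp correction. The 4 neuron markers summed to 0.878 to 1.26 times the 75th percentile in AI, 0.744 to 1.13 in MI and 1.41 to 2.51 in PI. Most of this sum was the signal of synaptophysin, and the part of the neuron markers in the difference of member 4-like was not tested. Subfamily K member 16, in mammals best known from the pancreas, averaged -3.52 in AI, -3.70 in MI and -4.79 in PI, and the 5 pancreatic enzymes summed to 6.44 to 892 in AI, 4.24 to 1527 in MI and 1.84 to 31.0 in PI, a range whose part was not tested. Members 5-like, an acid-sensitive channel of epithelia, and 18-like were lower in AI-MI, with means of 0.78 and -4.85 in AI, 1.05 and -4.65 in MI and 1.80 and -3.65 in PI. The difference of member 5-like was not seen on 1 of the 3 slides (0.033 on slide 3, against -0.89 with all slides).

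Small conductance calcium-activated potassium channel protein 1, which opens when calcium rises in the cell and in mammals is mainly neuronal, had the largest difference of the 47 genes. Its spot was marked uneven by the image software on 4 of 8 AI and 3 of 7 MI arrays, and on 0 of 8 PI arrays. On the 4 usable AI arrays it ran from 3.86 to 4.36 (median 4.03), on the 4 usable MI arrays from 3.63 to 4.57 (median 3.97) and on the 8 PI arrays from 8.58 to 9.19 (median 9.0). PI arrays lay far above and apart from all others, and AI-MI minus PI was -4.89 (SE 0.14, 29.7-fold lower in AI-MI). With the marked spots put back, the means were 4.19 in AI, 4.06 in MI and 8.94 in PI, so the gap was nearly as wide with them.

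Calcium-activated potassium channel subunit alpha-1, the large conductance channel of smooth muscle and of secreting epithelium in mammals, was higher in AI-MI. Its mean was 0.40 ± 0.90 in AI (SD, n = 8), 1.16 ± 0.33 in MI (SD, n = 7) and -0.62 ± 0.93 in PI (SD, n = 8), and the segments overlapped, with PI replicate 7 (0.97) the highest PI array. The 5 smooth muscle markers summed to 12.7 to 39.4 in AI, 18.5 to 45.8 in MI and 38.5 to 87.7 in PI. AI replicate 2 was the highest AI array for both (2.02 for the channel and 39.4 for the sum). In PI, replicates 7 and 8 were highest for the channel (0.97 and 0.60). They had the second lowest and the lowest sum (40.5 and 38.5). Replicates 2 and 4, next for the channel (-0.59 and -0.71), had the highest sums (87.7 and 80.1). The remaining PI arrays had -1.55 to -1.06 for the channel and sums of 43.5 to 65.3. The part of the markers in the differences of this channel was not tested. ATP-sensitive inward rectifier potassium channel 10, the potassium-buffering channel of glia in mammals, averaged -5.83 in AI, -5.30 in MI and -4.15 in PI, and potassium channel subfamily T member 1, which sodium opens, averaged -4.79 in AI, -4.34 in MI and -3.81 in PI. Both were dim but well above background on all 23 arrays, and both were lower in AI-MI. After normexp correction their differences of AI-MI minus PI (-0.22 and -0.12) no longer passed the threshold.

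The voltage-gated potassium family was split, with 3 genes higher and 2 lower in AI-MI. Potassium voltage-gated channel subfamily E member 2 is a small partner subunit which in mammals keeps the potassium channel of acid-secreting stomach cells open. It ran from 1.63 to 3.83 in AI (median 2.80), from 1.38 to 2.90 in MI (median 2.41) and from -0.29 to 0.82 in PI (median 0.45). No PI array reached the AI-MI range, and the difference was 2.12 (SE 0.24, 4.35-fold higher in AI-MI). Subfamily H member 5, a neuronal channel in mammals, averaged -4.86 in AI, -4.85 in MI and -6.27 in PI, where 5 of 8 arrays were well above background. Kv channel-interacting protein 1, a calcium-binding partner of fast potassium channels, averaged -3.70 in AI, -3.11 in MI and -2.20 in PI. Subfamily S member 2, a subunit that forms no channel alone, is given with the comparison of AI and MI.

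**Figure D2:**
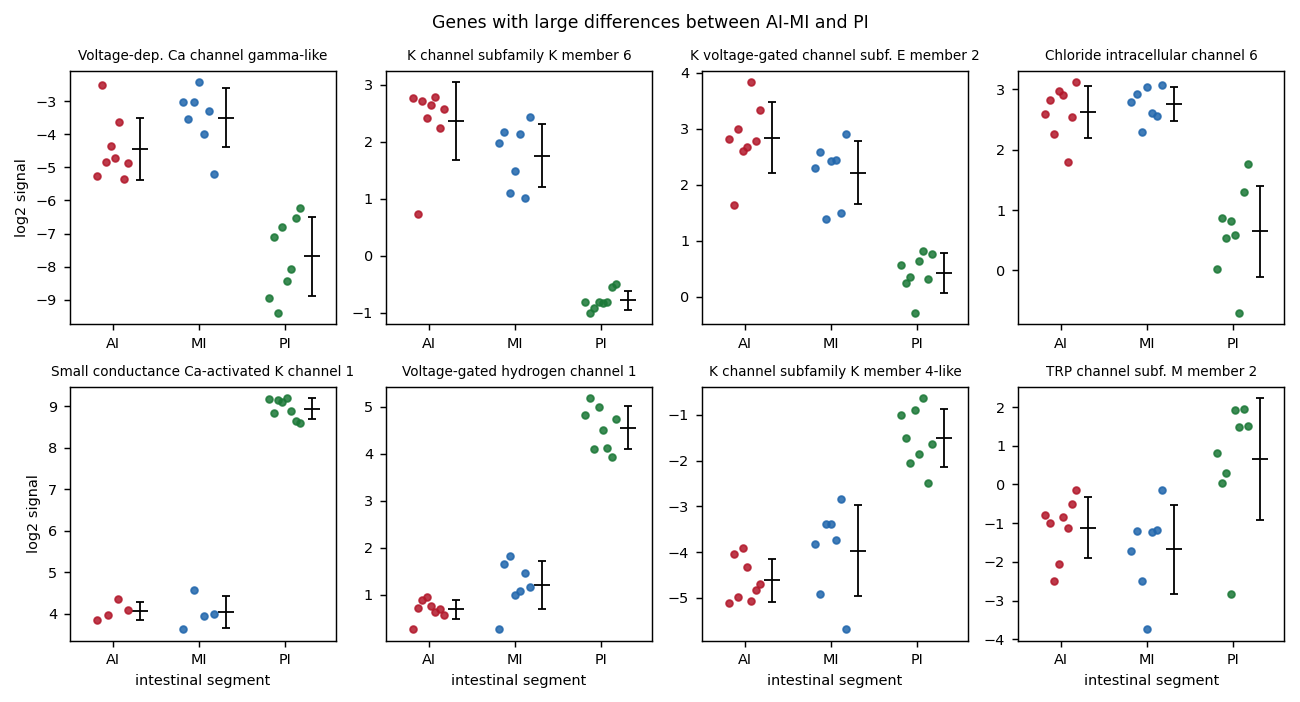
Log2 signal relative to the 75th percentile of the array (vertical axes, a scale of its own per panel) for 8 genes in AI, MI and PI (left to right). Points are arrays, and the bar beside them is the mean with the SD. In the upper row all AI and MI points lie above the PI points, and in the lower row they lie below them, except for transient receptor potential subfamily M member 2, where PI replicate 4 (-2.83) falls among the AI and MI points.

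The 3 genes named for chloride channels were all higher in AI-MI. Chloride intracellular channel protein 6, of a family found both free in the cell and in membranes, ran from 1.79 to 3.12 in AI (median 2.71), from 2.30 to 3.08 in MI (median 2.79) and from -0.70 to 1.76 in PI (median 0.71). All AI and MI arrays were above all PI arrays, if narrowly, and the difference was 2.04 (SE 0.22, 4.10-fold). The cystic fibrosis transmembrane conductance regulator, the chloride channel of gut secretion, ran from -4.71 to -2.79 in AI (median -4.05), from -4.20 to -3.04 in MI (median -3.65) and from -5.09 to -3.72 in PI (median -4.71). Its groups overlapped, with a difference of 0.84 (SE 0.22, 1.79-fold higher in AI-MI). Chloride channel protein 2, a chloride channel of epithelial membranes, ran from -2.30 to -1.14 in AI (median -1.81), from -2.18 to -1.22 in MI (median -1.41) and from -2.93 to -2.15 in PI (median -2.59). Here too the ranges touched, at a difference of 0.87 (SE 0.15, 1.83-fold). For all 3 the MI mean was a little above the AI mean, and none of the 3 had an unadjusted p under 0.05 for AI vs. MI.

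Anoctamins are calcium-activated chloride channels or lipid scramblases. Of the 6, anoctamin-9 alone was higher in AI-MI, with means of 0.46 in AI, 0.45 in MI and -0.69 in PI (difference 1.15, SE 0.12, no overlap of arrays). Anoctamin-10 averaged -2.50 in AI, -2.64 in MI and -1.10 in PI, anoctamin-6, the scramblase of platelets in mammals, averaged -4.58 in AI, -4.49 in MI and -3.63 in PI, and both were lower on all AI-MI arrays than on any PI array. The unnumbered anoctamin averaged -5.03 in AI, -5.11 in MI and -3.91 in PI, and anoctamin-6-like averaged -2.52 in AI, -2.15 in MI and -1.66 in PI. For anoctamin-9 the AI and MI means were nearly equal.

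The sodium/potassium pump exchanges sodium for potassium at the cost of ATP, with an alpha subunit that does the transport and a beta subunit that the alpha needs to reach the membrane. Subunit alpha-1, the housekeeping form in mammals, ran from 0.92 to 2.34 in AI (median 1.61), from 0.99 to 2.34 in MI (median 2.08) and from 2.15 to 2.77 in PI (median 2.54), a difference of -0.70 (SE 0.19, 1.62-fold lower in AI-MI). Subunit alpha-3, mainly neuronal in mammals, ran from 3.12 to 4.21 in AI (median 3.55), from 2.83 to 3.58 in MI (median 3.33) and from 1.69 to 2.70 in PI (median 2.57). Subunit beta-233 ran from 0.93 to 2.96 in AI (median 2.54), from 0.66 to 2.48 in MI (median 1.24) and from 0.55 to 1.36 in PI (median 1.30).

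The 2 alpha subunits were thus placed in opposite order along the gut. For alpha-3 every AI and MI array was above every PI array (difference 1.0, SE 0.16, 2.0-fold). The neuron markers were lower in AI-MI, and their part was not tested. For beta-233 the MI mean of 1.42 was nearer to the PI mean of 1.15 than to the AI mean of 2.35, and the difference of AI-MI minus PI was 0.77 (SE 0.27, 1.70-fold). AI replicate 2 (0.93) was the AI array that overlapped PI for beta-233, and MI replicate 7 was the lowest MI array for alpha-1. Single slides moved these differences, to -1.07 for alpha-1 on slide 3, 0.66 for alpha-3 on slide 1 and 0.31 for beta-233 on slide 1.

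Channels of organelles were split in the same manner. Voltage-dependent anion-selective channel proteins are the main pores of the outer mitochondrial membrane. Protein 1 averaged 3.63 in AI, 3.84 in MI and 4.41 in PI, without overlap, and protein 2 averaged 3.86 in AI, 3.63 in MI and 3.17 in PI. Their differences of AI-MI minus PI were -0.68 (SE 0.11) and 0.59 (SE 0.11). TPC1-like (clone L2_49817) is named after a calcium channel protein of endosomes and lysosomes. It had the narrowest spread of the 44 genes in AI and in MI, and ran from -2.25 to -1.79 in AI (median -2.04), from -2.23 to -1.81 in MI (median -2.01) and from -0.44 to 0.46 in PI (median -0.076). The AI and MI ranges nearly coincided and lay far below PI, with a difference of -1.96 (SE 0.10, 3.88-fold lower in AI-MI). Trimeric intracellular cation channel type B, which balances charge across the endoplasmic reticulum when calcium leaves it, averaged 2.05 in AI, 2.16 in MI and 1.22 in PI.

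**Figure D3:**
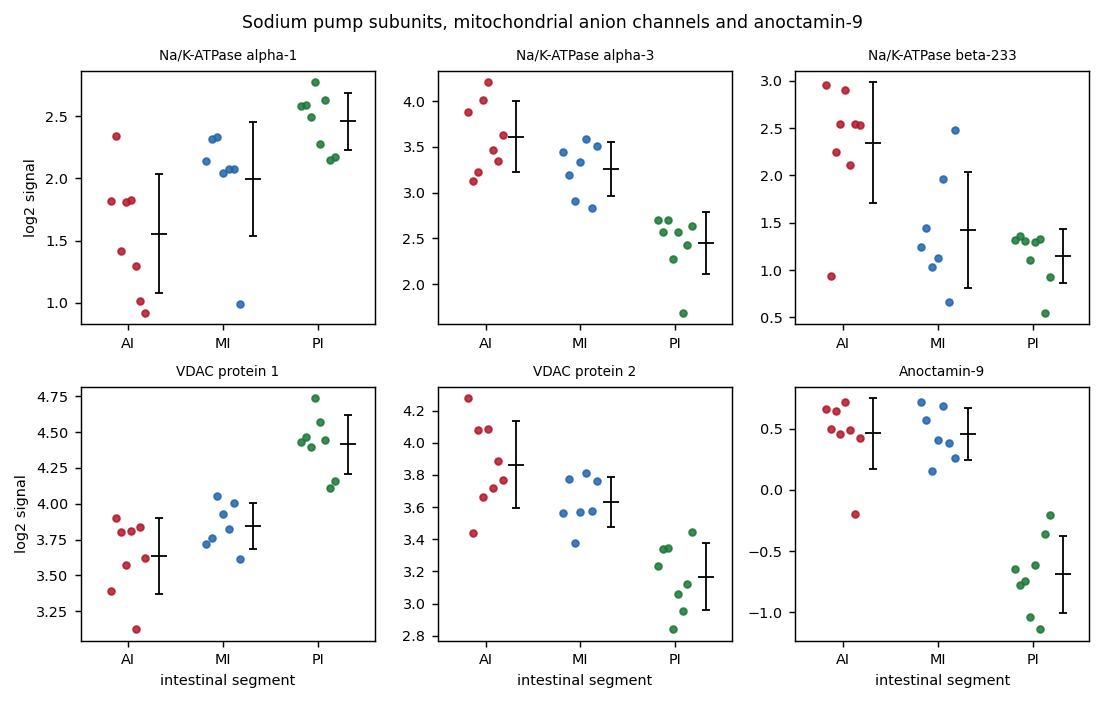
Log2 signal relative to the 75th percentile of the array (vertical axes, a scale of its own per panel) for the 3 sodium/potassium pump subunits, both voltage-dependent anion-selective channel (VDAC) proteins and anoctamin-9 in AI, MI and PI (left to right). Points are arrays, and the bar beside them is the mean with the SD. Alpha-1 and VDAC protein 1 are lower in AI and MI than in PI, while alpha-3, beta-233, VDAC protein 2 and anoctamin-9 are higher, and for beta-233 the MI points lie mostly at the level of PI.

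Among voltage-gated sodium, calcium and proton channels, voltage-gated hydrogen channel 1 had the largest difference after that of small conductance calcium-activated potassium channel protein 1 among the genes lower in AI-MI. This channel lets protons leave the cell, and in human phagocytes it balances the charge that the NADPH oxidase moves. It ran from 0.28 to 0.95 in AI (median 0.71), from 0.27 to 1.82 in MI (median 1.17) and from 3.94 to 5.18 in PI (median 4.62). All AI and MI arrays were far below all PI arrays, with a difference of -3.63 (SE 0.19, 12.3-fold lower in AI-MI). The 5 granulocyte and phagocyte markers, among them the NADPH oxidase parts neutrophil cytosol factor 1 and cytochrome b-245 light chain, summed to 1.5 to 3.36 in AI, 2.19 to 5.67 in MI and 4.40 to 18.2 in PI. Each of the 5 was lower in AI-MI, with AI-MI minus PI differences of -2.22 to -0.74 and array ranges that overlapped, and their part in the hydrogen channel difference was not tested.

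The voltage-dependent calcium channel gamma-like subunit, an accessory protein, was higher in AI-MI. It ran from -5.35 to -2.53 in AI (median -4.78), from -5.21 to -2.43 in MI (median -3.29) and from -9.39 to -6.22 in PI (median -7.59), where it was well above background on 1 of 8 arrays. The groups did not overlap. Since most PI arrays gave only an upper limit, the difference is given as a bound, with AI-MI at least 7.63-fold higher than the background limit of the PI arrays, and after normexp correction the log2 difference was 0.99. The alpha-2/delta-3 subunit averaged -5.21 in AI, -5.39 in MI and -6.24 in PI. Both alpha subunits (A and B) of sodium channel type 4, in mammals the channel of skeletal muscle, were lower in AI-MI, with alpha A at -5.49 in AI, -5.37 in MI and -4.26 in PI and alpha B at -4.85 in AI, -4.66 in MI and -4.13 in PI. Their differences after normexp correction were -0.059 and -0.028 and no longer passed the threshold. Of 4 striated muscle markers 2 were bright enough to be fitted, both higher in AI-MI. These were cardiac troponin T and a skeletal myosin light chain that was well above background on 11 of the 23 arrays. The part of muscle in the differences of the sodium channel subunits was not tested.

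Transient receptor potential channels are cation channels that respond to chemical or physical cues. Subfamily M member 2, which opens under oxidative stress and in mammals is found in phagocytes, ran from -2.50 to -0.15 in AI (median -0.92), from -3.74 to -0.15 in MI (median -1.23) and from -2.83 to 1.94 in PI (median 1.15). Its difference was -2.03 (SE 0.50, 4.07-fold lower in AI-MI), and it had the widest spread of the 44 genes in MI (SD 1.15) and in PI (SD 1.58). In PI, replicate 4 had -2.83 while the other 7 arrays had 0.042 to 1.94. The phagocyte marker sum of PI replicate 4, 5.22, was the second lowest of the 8 PI arrays. PI replicate 8 had the lowest sum (4.40), with this channel at 1.51. PI replicates 6 and 5 had sums close to that of replicate 4 (5.24 and 5.51), with this channel at 1.496 and 1.93. The part of phagocytes in the level of this channel was not tested.

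Short transient receptor potential channel 1, a cation channel tied to calcium stores, was dim. Well above background on 5 of 8 AI, 5 of 7 MI and 8 of 8 PI arrays, the gene has only upper limits for some AI and MI levels. It ran from -8.08 to -5.69 in AI (median -6.76), from -7.71 to -4.73 in MI (median -6.09) and from -5.29 to -4.02 in PI (median -4.79), with a difference of -1.67 (SE 0.32, 3.18-fold lower in AI-MI). AI arrays stayed below PI and MI arrays overlapped with it. After normexp correction the difference was -0.076 and did not pass the threshold. Subfamily M member 1, known from the retina, averaged -5.19 in AI, -5.72 in MI and -6.61 in PI.

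Sensory and mechanosensitive channels were split, with 2 higher and 3 lower in AI-MI. Piezo-type mechanosensitive ion channel component 2, a stretch sensor which in mice acts in enterochromaffin cells of the gut, ran from -2.76 to -0.54 in AI (median -1.14), from -2.52 to -0.84 in MI (median -1.95) and from -3.49 to -2.81 in PI (median -3.05). AI-MI and PI did not overlap, though AI replicate 2 (-2.76) came close, and the difference was 1.45 (SE 0.24, 2.74-fold). Transmembrane channel-like proteins belong to the family of the hair cell channel. The unnumbered one averaged -2.34 in AI, -1.95 in MI and -0.94 in PI, protein 8 averaged 0.15 in AI, 0.46 in MI and 1.44 in PI, and the dim protein 6-like averaged -6.97 in AI, -7.42 in MI and -7.82 in PI. In mammals proteins 6 and 8 are found in lymphocytes, and the 4 lymphocyte markers summed to 1.19 to 2.61 in AI, 1.62 to 5.02 in MI and 3.33 to 9.17 in PI, with no test of their part.

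The MI arrays were part of the pool on which the genes were chosen, which disfavours genes with MI near PI, so the place of MI between the other segments is given as a description only. The MI mean lay between the AI and PI means for 35 of the 47 genes and for 32 of the 44 fitted, where this held for 50.9% of all probes and 67.6% of the named ones. It was nearer to AI than to PI for 39 of the 44, where 92.6% of the named probes had it so. In order of level, 20 genes had AI lowest, MI between and PI highest, and 15 had PI lowest, MI between and AI highest. In 8 MI was highest and PI lowest, and in 4 MI was lowest and PI highest. The genes with MI nearer to PI were the alpha subunit of the cone photoreceptor cyclic nucleotide-gated channel, sodium channel and clathrin linker 1, pump subunit beta-233, transient receptor potential subfamily M member 6, transmembrane channel-like protein 6-like and, outside the fits, potassium voltage-gated channel subfamily G member 3. Protein 6-like was well above background on only 2 of 7 MI and 3 of 8 PI arrays, and subfamily G member 3 on 1 of 7 and 3 of 8. Their MI and PI means lie near the background limit and do not show that MI resembled PI.

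**Figure D4:**
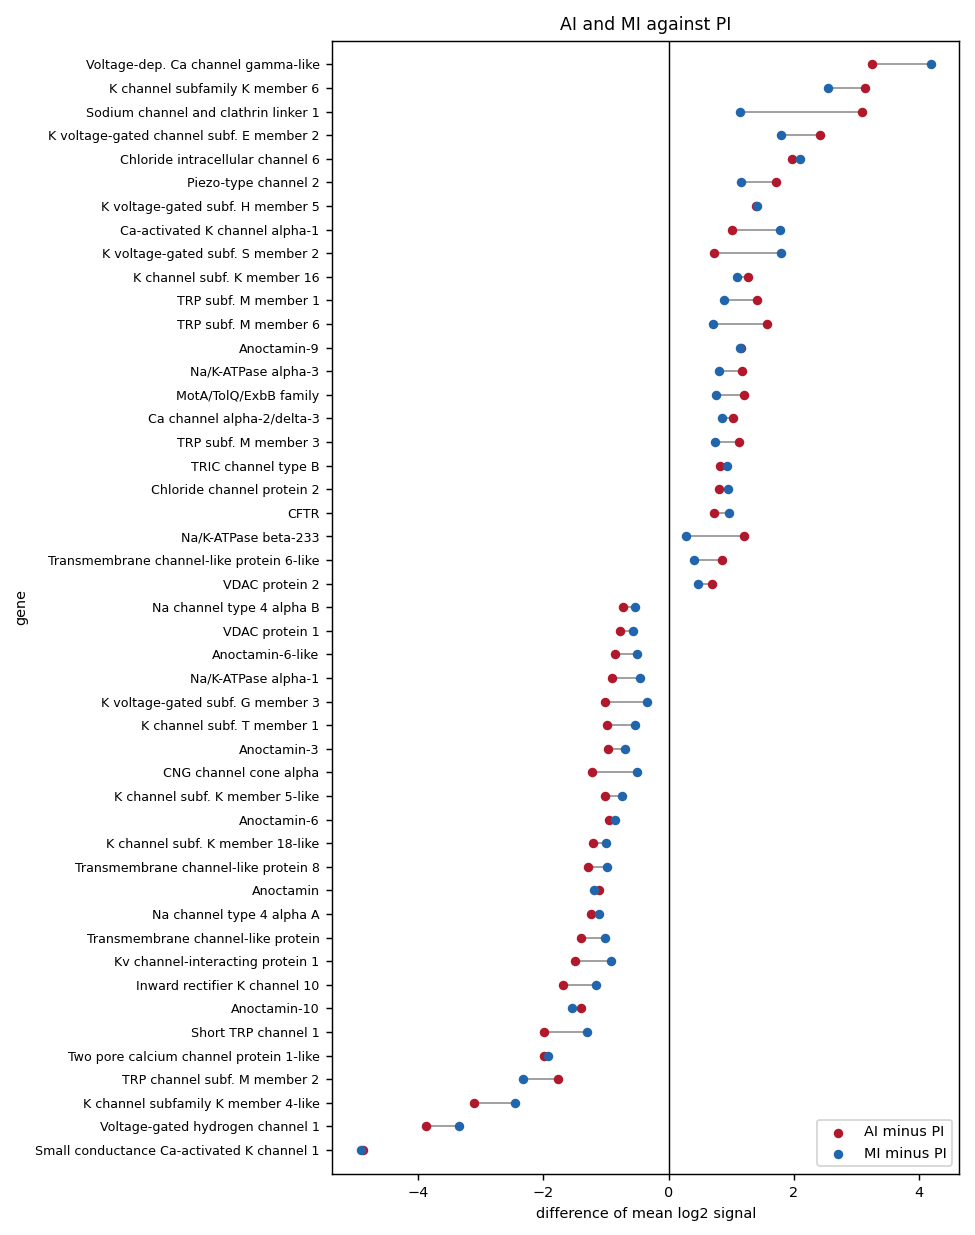
Difference of mean log2 signal (horizontal axis) of AI minus PI and MI minus PI for each of the 47 genes, ordered by AI-MI minus PI, with both points of a gene joined by a line. Both points lie on the same side of 0 for every gene, as the selection favours, and both share the PI arrays. Long lines mark genes in which AI and MI were apart, the longest being that of sodium channel and clathrin linker 1 (3.09 and 1.15).

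AI and MI were then compared directly, a contrast that the choice of genes did not test. Both segments formed the pool of that choice, so the contrast is not fully free of it. With limma and Benjamini-Hochberg adjustment over all 12894 probes, 0 of the 44 genes and 0 of all probes (0%) passed. The lowest limma adjusted p of the 44 was 0.216, for the adaptor sodium channel and clathrin linker 1. Transient receptor potential subfamily M member 6 followed with 0.218. At an unadjusted p under 0.05 there were 13 of the 44 genes, where 12.7% of all probes and 19.5% of the named ones were. Of these, 5 were higher in AI (6.26% of all probes) and 8 were lower in AI (6.44%). The AI and MI arrays overlapped for every gene of the 44, as for all but 0.062% of probes. The result turned on AI replicate 2. Without this array 7 of the 44 genes passed the adjusted threshold, 4 higher and 3 lower in AI, where 4.56% of all probes passed (1.81% higher and 2.75% lower in AI). The share of the named probes, which was above that of all probes at the unadjusted threshold, was not counted here, so no enrichment is read from the 7. Without MI replicate 7, 0 of the 44 passed, with a lowest adjusted p of 0.0751.

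The gene with the smallest p was sodium channel and clathrin linker 1. It ran from -1.15 to 3.74 in AI (median 2.19), from -0.67 to 1.57 in MI (median -0.42) and from -1.46 to -0.69 in PI (median -1.08). On 7 of the 8 AI arrays it lay between 1.83 and 3.74, above every MI array, while AI replicate 2 was at the level of PI and gave the widest AI spread of the 44 genes (SD 1.41). AI minus MI was 1.94 (SE 0.57, limma adjusted p = 0.216), and 2.39 (SE 0.38, limma adjusted p = 0.00658) without AI replicate 2.

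Transient receptor potential subfamily M member 6, the channel for magnesium uptake in the mammalian gut and kidney, ran from -0.085 to 1.60 in AI (median 0.84), from -0.59 to 0.85 in MI (median -0.36) and from -1.64 to -0.39 in PI (median -0.74). All 8 AI arrays were above the MI mean, and MI replicate 7 was the highest MI array. AI minus MI was 0.87 (SE 0.26), and 0.99 (SE 0.25, limma adjusted p = 0.0374) without AI replicate 2. Pump subunit beta-233, with 7 of 8 AI arrays above the MI mean, had an AI minus MI difference of 0.92 (SE 0.30), and of 1.13 (SE 0.25, limma adjusted p = 0.0222) without that array. Potassium channel subfamily K member 6 joined them only without it, with a difference of 0.83 (SE 0.22, limma adjusted p = 0.0423).

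Lower in AI than in MI was potassium voltage-gated channel subfamily S member 2, a modifying subunit. It ran from -5.58 to -2.58 in AI (median -4.53), from -4.48 to -2.58 in MI (median -3.27) and from -5.55 to -4.30 in PI (median -5.18). AI replicate 2 was the highest AI array and level with the highest MI array, and MI replicate 7 was the lowest MI array. The difference of AI minus MI was -1.07 (SE 0.35), and -1.33 (SE 0.27, limma adjusted p = 0.0143) without AI replicate 2.

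The alpha subunit of the cone photoreceptor cyclic nucleotide-gated channel, the light-response channel of cones, ran from -3.15 to -1.28 in AI (median -2.61), from -2.75 to -1.44 in MI (median -1.60) and from -1.63 to -0.47 in PI (median -1.34). Again AI replicate 2 was the highest AI array and MI replicate 7 the lowest MI array, with AI replicate 2 within the PI range and MI replicate 7 within the AI range. AI minus MI was -0.70 (SE 0.25), and -0.87 (SE 0.20, limma adjusted p = 0.0295) without AI replicate 2. Calcium-activated potassium channel subunit alpha-1, with -0.77 (SE 0.34) over all arrays, had -1.0 (SE 0.26, limma adjusted p = 0.0466) without it.

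The other genes with an unadjusted p under 0.05 had AI minus MI differences of 0.62 (potassium voltage-gated channel subfamily E member 2) and 0.52 (transient receptor potential subfamily M member 1), or of -0.94 (calcium channel gamma-like subunit), -0.58 (Kv channel-interacting protein 1), -0.52 (voltage-gated hydrogen channel 1), -0.39 (the unnumbered transmembrane channel-like protein) and -0.36 (anoctamin-6-like). None of these 7 passed the adjusted threshold with or without AI replicate 2. Between AI and MI the marker lists had medians of AI minus MI of -0.68 for granulocytes and phagocytes, -0.46 for lymphocytes, -0.49 for smooth muscle and -2.09 for pancreatic enzymes. They were -0.23 for neurons, -0.18 for enterocytes and -0.63 for the 2 fitted striated muscle markers. Over all arrays 0 of the marker genes passed the adjusted threshold. Without AI replicate 2, 4 markers passed it, all lower in AI: cytochrome b-245 light chain of the phagocyte list (-1.15, limma adjusted p = 0.0489), myosin regulatory light polypeptide 9 of smooth muscle (-0.74, limma adjusted p = 0.0475), neuronal membrane glycoprotein M6-b (-0.74, limma adjusted p = 0.0103) and cardiac troponin T of striated muscle (-1.93, limma adjusted p = 0.0312). Over all arrays, the neuron markers synaptophysin (0.18) and doublecortin (0.12) were higher in AI and synaptogyrin-3 (-0.58) was lower. Of striated muscle, skeletal troponin C and skeletal myosin light chain 2 were dim but higher in AI (1.71 and 0.48), and its type 2 was lower (-0.33). Myosin light chain kinase of smooth muscle was nearly level (0.012). The part of the marker genes in the differences of the channel genes was not tested.

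**Figure D5:**
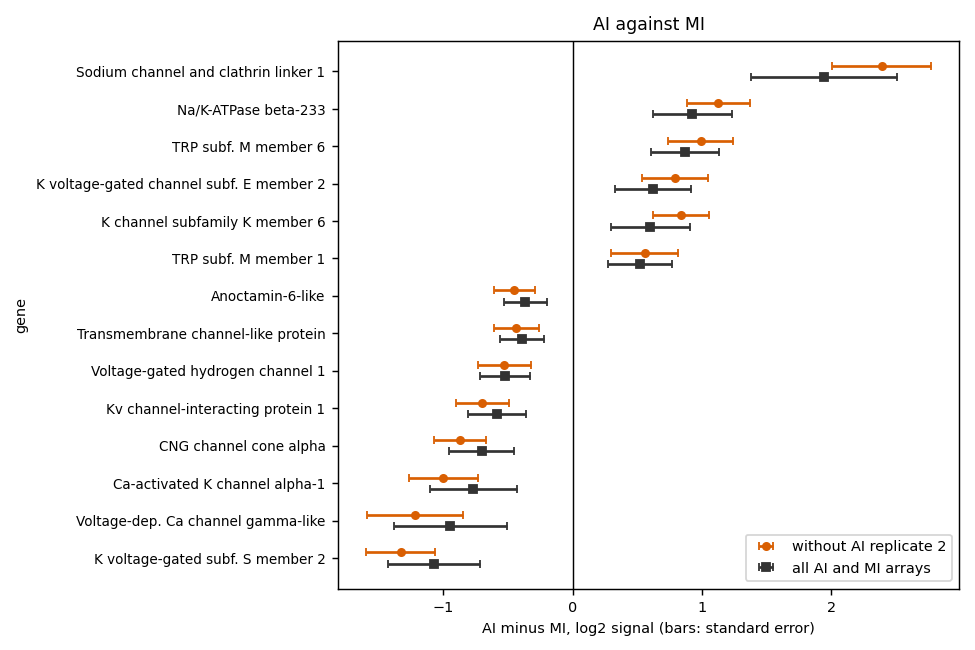
AI minus MI difference of log2 signal (horizontal axis, bars are standard errors) for the 13 genes with an unadjusted p under 0.05 and for potassium channel subfamily K member 6. Orange circles leave out AI replicate 2 and dark squares use all AI and MI arrays. Every difference is farther from 0 without that array, as leaving out an AI array near MI favours. The widest gap is that of sodium channel and clathrin linker 1 (2.39 and 1.94).

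Other genes of ion transport whose names the search did not match, 25 in number and from the same list of called genes, had 9 members higher and 16 lower in AI-MI than in PI. All fitted probes named in that list had a median difference of -0.63, also lower in AI-MI, so nothing is read from this split. In AI vs. MI 0 of the 25 passed the adjusted threshold by limma, and 3 had an unadjusted p under 0.05. This held for 12.7% of all probes and 19.5% of the named ones, so nothing is read from the count. The 3 are all named here because they are so few. Otopetrin-3, of a family of proton channels, ran from -5.81 to 0.17 in AI (median -1.35), from -6.94 to -1.38 in MI (median -5.43) and from -6.87 to -5.31 in PI (median -6.00). AI minus MI was 3.22 (SE 0.87, limma adjusted p = 0.216), 3.79 (limma adjusted p = 0.0103) without AI replicate 2 and 3.82 (limma adjusted p = 0.0487) without MI replicate 7. Its relative otopetrin-2 was placed the other way, from 2.52 to 3.91 in AI (median 3.53), from 3.70 to 4.37 in MI (median 3.98) and from 0.54 to 2.99 in PI (median 1.95), with an AI minus MI difference of -0.56 (SE 0.19). The exchange regulatory cofactor NHE-RF1, a scaffold that in mammals binds the cystic fibrosis regulator, ran from -2.82 to 0.83 in AI (median -2.33), from -2.11 to 0.66 in MI (median 0.044) and from 1.06 to 2.13 in PI (median 1.78). AI minus MI was -1.53 (SE 0.52, limma adjusted p = 0.249) over all arrays and -1.93 (limma adjusted p = 0.0120) without AI replicate 2.

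Within each segment the median SD of the channel genes was above that of all probes. The median SD of the 44 genes was 0.49 in AI, 0.49 in MI and 0.38 in PI, where that of all probes was 0.38 in AI, 0.34 in MI and 0.32 in PI. Of each gene's 3 SDs, the highest fell in AI for 24 genes, in MI for 9 and in PI for 11. Neither the SD of the named probes nor this count over all probes was taken. Nothing particular to the channel genes is therefore read from these spreads. The dim MotA/TolQ/ExbB family gene averaged -5.99 in AI, -6.43 in MI and -7.19 in PI and was well above background on 8 of 8 AI, 2 of 7 MI and 2 of 8 PI arrays.

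Of the 3 genes too dim for the fits, anoctamin-3 was well above background on 0 of 8 AI, 1 of 7 MI and 5 of 8 PI arrays, potassium voltage-gated channel subfamily G member 3 on 0 of 8 AI, 1 of 7 MI and 3 of 8 PI arrays, and transient receptor potential subfamily M member 3 on 2 of 8 AI, 1 of 7 MI and 0 of 8 PI arrays. Their levels ran from -8.86 to -6.08, from -9.01 to -6.72 and from -8.92 to -6.89 over all 23 arrays. No fold is given for them, since most of their arrays give only an upper limit.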

How the data were processed

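European sea bass intestine was profiled on 23 one-colour arrays (8 AI, 7 MI and 8 PI), grouped by their labels. An eighth MI array was not analysed here. Per the labels, the authors extracted spots with Agilent Feature Extraction 11.5.1.1, and in the deposited processed intensity the background and spatial trends are removed, while arrays are left on their own scales. The authors also deposited raw median intensity of spots and local background, and flags for uneven spots and for spots well above background. Their deposited value table is on the log2 scale, and it follows the values used here minus each probe's median over arrays (median absolute difference 0.00245 to 0.0152 per array, with direction settled by that comparison).

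From the files, log2 of the processed signal was taken (Python 3.11.15 with pandas 2.3.3 and numpy 2.4.6). Spots marked uneven or as outliers (1 to 47 per array) were left out, replicate spots were averaged, and each array was scaled to its 75th percentile. Probes that exceeded background clearly on 7 or more of the 23 arrays were fitted with limma 3.58.1 in R 4.3.3 (lmFit and eBayes, two-sided, Benjamini-Hochberg over 12894 probes, threshold 0.05), after a test on simulated data. AI vs. MI used only those arrays. AI-MI vs. PI was fitted for the background, and for the channel genes it is a description, since they were chosen on it. The number of arrays limits the precision.

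Names came from the study's list of called genes, whose fold changes were not used. The channel genes, the other gene lists and the tests were chosen with earlier results of these data known. Array values are given for the 6 genes per direction with the largest difference, the 5 with the lowest p between AI and MI, the chloride channels and the pump subunits, and the 3 smallest differences as those nearest the threshold. Alternatives were quantile normalization, normexp (offset 50, on median intensity), no filter, the authors' table, the methods' t-test, slide or replicate number as a block, a joint fit and each array left out. Fits within each slide and with marked spots kept were added after seeing the data.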

Additional observations from a re-analysis of the deposited data

Results flagged for a closer look

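For each gene and segment with 4 to 10 arrays, a level was singled out when its gap to the nearest other array was large for the range of the segment (Dixon's criterion). This held for 12 of 132 groups of arrays. The criterion nominally marks about 1 in 20 by chance, but the share over all probes was not determined, so no excess is read from this count. Of the 12, 6 were in AI replicate 2, 2 in MI replicate 7, 2 in PI replicate 4, 1 in AI replicate 7 and 1 in PI replicate 6.

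AI replicate 2 stood below the other AI arrays for sodium channel and clathrin linker 1 (-1.15, others 1.83 to 3.74), potassium channel subfamily K member 6 (0.73, others 2.23 to 2.78), pump subunit beta-233 (0.93, others 2.11 to 2.96) and Piezo-type mechanosensitive ion channel component 2 (-2.76, others -1.56 to -0.54). It stood above them for potassium voltage-gated channel subfamily S member 2 (-2.58, others -5.58 to -4.21) and the alpha B subunit of sodium channel type 4 (-4.08, others -5.18 to -4.75).

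MI replicate 7 stood below the other MI arrays for the alpha subunit of the cone photoreceptor cyclic nucleotide-gated channel (-2.75, others -1.73 to -1.44) and for pump subunit alpha-1 (0.99, others 2.04 to 2.34). PI replicate 4 stood below the other PI arrays for transient receptor potential subfamily M member 2 (-2.83, others 0.042 to 1.94) and for the dim MotA/TolQ/ExbB family gene (-8.69, others -7.44 to -6.59). AI replicate 7 was low for anoctamin-9 (-0.20, others 0.42 to 0.72), and PI replicate 6 was low for pump subunit alpha-3 (1.69, others 2.27 to 2.70).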

How the results depend on the processing

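For AI vs. MI, 0 of 44 channel genes passed under quantile normalization, normexp correction, no filter (of 47), the authors' table, the methods' t-test, slide as a block, the joint fit, marked spots kept and within each slide. Leaving out each array in turn gave 0 to 7 channel genes and 0 to 588 of all probes (588 without AI replicate 2 and 40 without MI replicate 7), and the joint fit gave 49 of all probes. For AI-MI vs. PI, 42 to 44 of the 44 channel genes and 5192 to 5805 of all probes passed when each array was left out, 43 under quantile normalization (transmembrane channel-like protein 6-like was lost) and 38 under normexp correction, where potassium channel subfamily T member 1, both type 4 sodium channel subunits, the unnumbered anoctamin, inward rectifier 10 and short transient receptor potential channel 1 were lost. All genes lost under normexp correction were lower in AI-MI. Within slide 1, slide 2 and slide 3, with fewer arrays, 14, 37 and 24 channel genes and 1410, 3508 and 2033 of all probes passed, against 44 and 5684 over all arrays. Potassium channel subfamily K member 5-like changed sign within slide 3 (0.033), and the cause was not tested. Same-numbered arrays deviated together for AI and PI (correlations 0.189 to 0.590, 8 of 8 over 0.1), where 8 of 8 correlated best with their own number. This was less regular for AI and MI (0.00590 to 0.449, 6 of 7 over 0.1), with 4 of 7 best with their own number. For MI and PI the correlations were 0.00284 to 0.553, with 5 of 7. Medians for unlike numbers were -0.060 to -0.039. Equal numbers may mark the same fish, which the labels do not say. Most same-numbered arrays also lay on the same slide, and the correlations were not adjusted for slide. A shared fish and a shared slide therefore cannot be told apart here. The main fits did not pair arrays, so their standard errors and p leave out any shared fish. With the replicate number as a block, 0 of 44 channel genes passed for AI vs. MI (lowest limma adjusted p 0.121), and 44 of 44, with 6805 of all probes, for AI-MI vs. PI.

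Dim probes limit the sizes given: 20 of the 44 differences of AI-MI minus PI shrank by more than 1.5 times under normexp correction. On slides 1 and 3 alone, with 2 or 3 arrays per segment, some differences of single genes moved as far.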
